A study of Capsicum annuum with 2 samples.

Results

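In anthers of chili pepper (Capsicum annuum), 235 unigenes had 0 reads in the cytoplasmic male sterile (CMS) line 121A and at least 200 but fewer than 5000 reads in its near-isogenic restorer line 121C. A unigene is an assembled transcript sequence, and the set was chosen by these read numbers alone. The 235 unigenes were 2.06% of the 11387 in the deposited table and 9.01% of the 2607 listed with 0 CMS reads, which in turn were 22.9% of the list. The reads of both lines therefore describe the set and were put to no test.

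The CMS line 121A is male sterile, and the restorer line 121C carries a dominant restorer gene introduced by a cross. Both lines took their cytoplasm from the same sterile line and were repeatedly backcrossed to inbred line 121, so that their nuclear background is held to be alike outside the restorer locus. RNA from anthers of several plants and bud phases was mixed per line, and 1 library of each line was sequenced, which leaves the spread between plants and between phases unmeasured. The authors listed only unigenes that they called different between the lines, and a gene outside this list was not analysed here. The libraries held 10744829 counted reads for 121A and 9552875 for 121C. A single unigene took 32.3% of the CMS library. Without the most abundant listed unigene of each library the order turned, with 7271323 reads for 121A and 8851285 for 121C, so that fewer reads were left for the other unigenes in the line with 0 reads.

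In cytoplasmic male sterility, a plant with an incompatible mitochondrial genome fails to make functional pollen, and a nuclear restorer gene brings pollen formation back. Anthers hold the developing microspores and several layers of sporophytic tissue, among them the tapetum, which feeds the microspores. Many transcripts of flowering plants are made mainly in the tapetum or in maturing pollen. In RNA of whole anthers, fewer cells of a type and less RNA per cell cannot be told apart. None of the 235 unigenes is among the annotations used here, which are a part of the study's table, so that their role as a group, and markers of anther tissue among them, were not analysed.

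The study selected 20 unigenes for PCR with specific primers, and 3 of these had 0 reads in the CMS line. Only comp66553_c0_seq1 is in the range described here. By the study's description, its match carries F-box and WD40 domains. F-box proteins recognise the substrates of ubiquitin ligase complexes, which mark proteins for degradation, and WD40 repeats form a surface for binding other proteins. Its primers are the only sequences of the set in the material used here, and they are shown because they define the transcript that was chosen for PCR. The PCR values were not analysed here.
comp66553_c0_seq1 forward primer: agcatgatatggcgtcaaca
comp66553_c0_seq1 reverse primer: ccaaacaaaggattcgggta
Both primers, written 5′ to 3′, have 20 bases and a GC content of 45.0%.

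The F-box unigene comp66553_c0_seq1 had 0 reads in 121A and 1257 reads, or 71.9 RPKM, in 121C. RPKM values are reads scaled by unigene length and library total. A count of 0 allows up to 3 reads, which for its length of 1830 bp is 0.153 RPKM in 121A. With 3 reads in place of 0, the unigene was at least 471-fold lower in 121A, a limit that covers counting error in these 2 libraries only. It ranked 25th by reads and 69th by RPKM among the 235 unigenes, and no other listed unigene shares its assembly component. Of the other PCR-tested unigenes with 0 CMS reads, comp39894_c0_seq1 had 134 reads and comp60513_c2_seq1 had 103 reads in 121C. Both lie below the limit of 200 reads.

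Most of the unigenes lay near the lower end of the range. The restorer line had a median of 365 reads per unigene, with quartiles of 265 and 665 reads. Fewer than 500 reads were counted for 148 unigenes, from 500 to below 1000 for 50, from 1000 to below 2000 for 24 and at least 2000 for 13. Together the 235 unigenes held 151345 reads, or 1.58% of the restorer library. These reads were unevenly spread. The 10 unigenes with most reads held 22.8% of them, and 41 unigenes were enough to hold 50% of the sum.

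The most abundant unigene by reads was comp38574_c0_seq1 (1306 bp), with 0 reads in 121A and 4995 in 121C. It was followed by comp38609_c0_seq1 with 4145 restorer reads, comp62607_c0_seq1 with 4018, comp62722_c0_seq1 with 3830 and comp38669_c0_seq1 with 3546. The last of these was also the longest unigene of the set, at 3863 bp. The 5 unigenes thus differed less in reads than in length.

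The other 8 unigenes with at least 2000 restorer reads are named here after their values were seen. They began with comp59977_c0_seq1, with 3065 reads on 3045 bp, comp26961_c0_seq1, with 2990 reads on 1172 bp, and comp48002_c0_seq1, with 2939 reads on 410 bp. Below them came comp63839_c0_seq1 with 2518 reads, comp58151_c1_seq1 with 2436, comp60177_c9_seq1 with 2370, comp62865_c0_seq1 with 2276 and comp62428_c0_seq1 with 2084. All 13 had 0 reads in 121A, as the choice of the set requires, and their levels in 121C ranged from 96.1 to 1486 RPKM.

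The limits of the range cut through a continuous series of read numbers. Just inside the lower limit lay comp26768_c0_seq1 and comp55354_c0_seq1 with 200 restorer reads each and comp70107_c0_seq1 with 204. Just outside it lay comp60233_c1_seq1 with 198, comp53953_c0_seq1 with 197 and comp56825_c0_seq1 with 196. At the upper limit, 6 unigenes with 0 CMS reads had 5000 restorer reads or more. The nearest was comp26909_c0_seq1 with 5076 reads, followed by comp38541_c0_seq1 with 6363 and comp58638_c0_seq1 with 7174.

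Scaled to length, the levels in 121C ranged from 8.58 to 1486 RPKM. The median was 40.4 RPKM, with quartiles of 28.5 and 80.0 RPKM. At least 100 RPKM was reached by 41 unigenes, and 23 were below 20 RPKM. Of the 41, 24 had at least 1000 reads and 19 were shorter than 500 bp. High levels per length were thus found both in unigenes with many reads and in short ones. With reads divided by length and at least 200 reads required, this follows from the rule.

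The highest level was that of comp38609_c0_seq1, whose 4145 reads lay on 292 bp and gave 1486 RPKM in 121C. The next were comp48002_c0_seq1 (410 bp) with 750 RPKM, comp62339_c0_seq1 (260 bp) with 567 RPKM and comp38619_c0_seq1 (243 bp) with 430 RPKM. These unigenes are shorter than most of the set, and each had 0 reads in 121A. The fifth, comp62607_c0_seq1, reached 401 RPKM at 1049 bp.

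**Figure D1:**
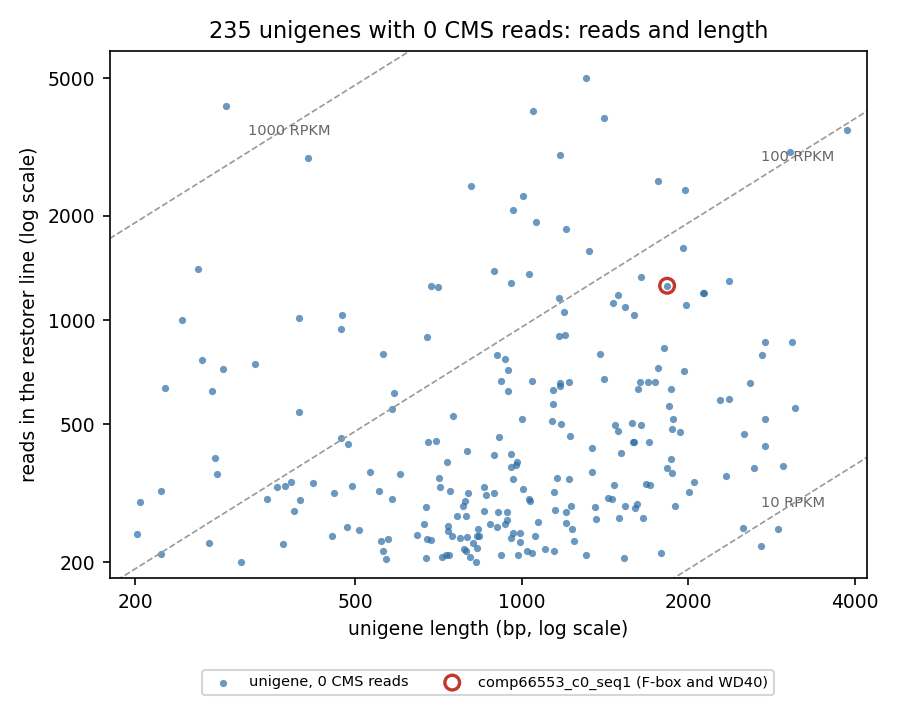
Reads in 121C against unigene length, both on log scales, for the 235 unigenes with 0 CMS reads (1 point each). Dashed lines mark equal RPKM in 121C. The red circle is comp66553_c0_seq1 at 1257 reads and 1830 bp, and the points above 1000 reads extend from 260 to 3863 bp.

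The fold difference of each unigene has only a lower limit, because the CMS line had no read. With the 0 reads taken as 3, the unigenes were lower in 121A by at least 75.0-fold for the least abundant and at least 1873-fold for the most abundant. The median of these limits was 137-fold, with quartiles of 99.4-fold and 249-fold. The lowest limits belonged to the unigenes with 200 restorer reads, and the highest to comp38574_c0_seq1. A limit of at least 100-fold was reached by 175 of the 235 unigenes (74.5%), one of at least 500-fold by 21 and one of at least 1000-fold by 8. Among all listed unigenes, 4.70% were lower in 121A by at least 100-fold under the same treatment, and 22.9% had 0 CMS reads. As the set was chosen for 0 CMS reads and many restorer reads, nothing is read from this contrast. The limits allow for counting error of the 0 reads only, take the restorer reads as exact and leave out the variation between plants. They do not allow for the choice of the unigenes by their 0 CMS reads either. Exact (Clopper-Pearson) limits at 95% ran from 60.4-fold to 1522-fold with a median of 111-fold. They set a stricter level for the 0 reads than 3 reads do, and also count the error of the restorer reads. By them 136 unigenes reached 100-fold. With totals without the most abundant listed unigene of each library, 117 unigenes reached it.

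The level that the 0 reads allow depends on the length of the unigene. It ran from 0.0723 RPKM in 121A for comp38669_c0_seq1, the longest, to 1.38 RPKM for the shortest, with a median of 0.281 RPKM. The largest of these limits was below the lowest restorer level of the set, 8.58 RPKM. As at least 200 restorer reads were required, each limit lies below the unigene's own restorer level by the rule. On the scale of log2(RPKM + 1), which shrinks low values, the median log2 ratio of 121A over 121C was -5.37. It ranged from -10.54 for comp38609_c0_seq1 to -3.26. The pseudocount sets this ratio where the CMS line has 0 reads, and the median was -8.66 with 0.1 RPKM and -11.98 with 0.01 RPKM added.

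The 235 unigenes were then compared with listed unigenes of the same range of restorer reads that did have CMS reads. In all, 2050 listed unigenes with 200 to below 5000 restorer reads were higher in 121C, and the 235 with 0 CMS reads were 11.5% of them. One CMS read was counted for 104 unigenes, 2 reads for 61, 3 reads for 45 and 4 reads for 32. The number of unigenes thus dropped by more than 50% between 0 reads and 1 read and went on declining, without a gap, up to 4 reads. More than 10 CMS reads were counted for 1448 unigenes.

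**Figure D2:**
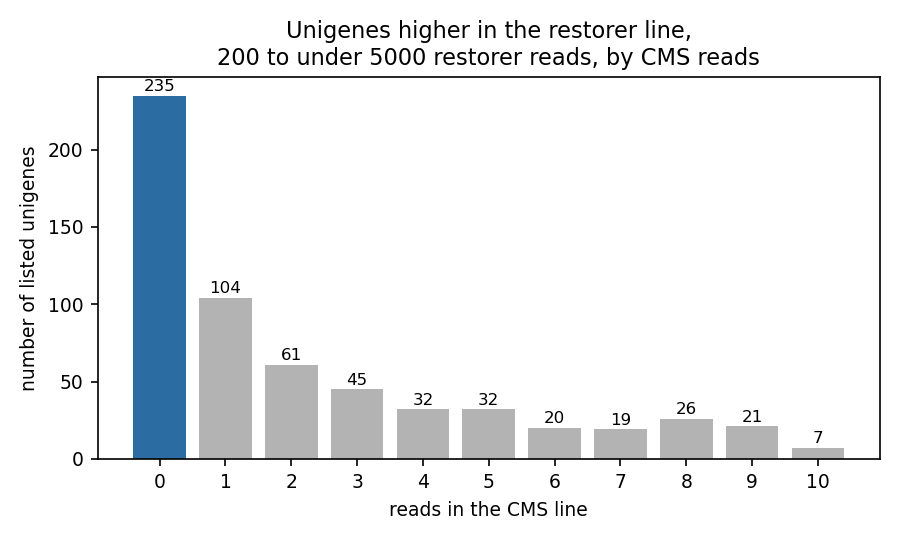
Number of listed unigenes (vertical axis) with each number of reads in 121A from 0 to 10 (horizontal axis), among those higher in 121C with 200 to below 5000 restorer reads. The blue bar is the set of 235 with 0 CMS reads, next to 104 with 1 read and 61 with 2, and 1448 unigenes with more than 10 CMS reads are not drawn.

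The share of unigenes with 0 CMS reads was lower where restorer reads were higher. It was 15.0% of the listed unigenes higher in 121C at 200 to below 500 restorer reads, 9.60% at 500 to below 1000, 7.10% at 1000 to below 2000 and 6.34% from 2000 to the upper limit. Below the range, the share was 24.6% at 100 to below 200 reads, and above it 5.50%. Because only unigenes called different are listed, these are shares of the list and not of the transcriptome.

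In the opposite direction few unigenes met the mirrored rule. Only 4 listed unigenes had 200 to below 5000 reads in 121A and 0 in 121C, against the 235 described here. They were comp54881_c1_seq1 with 1654 CMS reads, comp63387_c0_seq1 with 1286, comp62752_c0_seq1 with 715 and comp75836_c0_seq1 with 271. The number was still 4 when the limits were scaled by the library totals to 225 and 5623 CMS reads. Totals without the most abundant listed unigene, for which the order of the lines turned, were not used for these limits. Over the whole list, 4326 of 11387 unigenes (38.0%) were higher in 121A. How many of them lay in this range of CMS reads was not counted, so the 4 have no share to set beside the 11.5% given above. The study describes comp75836_c0_seq1 as an ARF GTPase activator, a class of protein that acts in vesicle traffic.

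Length was not used to choose the set. The lengths implied by reads, RPKM and library total were whole numbers within 5.47e-05 bp. The shortest unigene had 202 bp and the longest 3863 bp. The median length was 993 bp, with quartiles of 710 and 1533 bp, beside 865 bp over all listed unigenes. The whole list had a median of 49 restorer reads, against 365 in the set. The 2366 listed unigenes with 0 CMS reads and fewer than 200 restorer reads had a median length of 565 bp. As length goes with reads in this way, the longer median is not read as a trait of the set. The longest after comp38669_c0_seq1 were comp61799_c0_seq1 at 3110 bp, with 556 restorer reads, and comp54427_c0_seq1 at 3076 bp, with 866. The shortest were comp60090_c1_seq1 at 202 bp, with 241 restorer reads, comp57523_c0_seq1 at 204 bp, with 299, and comp45559_c0_seq1 at 223 bp, with 211. The limit of 200 reads was thus reached on very short and on long sequences.

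Within the range of 200 to below 5000 restorer reads, the unigenes with 0 CMS reads had a lower median length than those with CMS reads. They also had fewer restorer reads, with a median of 365 against 552. The median length was 993 bp for the 235 unigenes, 1270 bp for the 210 with 1 to 3 CMS reads, 1447 bp for the 395 with 4 to 50 and 1663 bp for the 1210 with more than 50. Under 500 bp were 14.9% of the 235 unigenes and 3.31% of the 1815 with at least 1 CMS read. Unigenes are not replicates, and the difference was put to no test.

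The order of the medians was the same within each narrower class of restorer reads. At 200 to below 500 reads the median length was 908 bp with 0 CMS reads and 1468 bp with CMS reads. It was 1173 bp with 0 CMS reads and 1626 bp with CMS reads at 500 to below 1000 restorer reads. At 1000 to below 2000 reads the medians were 1263 and 1698 bp, and from 2000 reads 1172 and 1781 bp, in the same order. Each class outside the range showed this order as well, so that it is not particular to the set. At 100 to below 200 restorer reads the medians were 830 and 1077 bp, and from 5000 reads 1478 and 1531 bp. Reads and length were weakly related over the 235 unigenes, with a Spearman rho of 0.27 (n = 235 unigenes of 1 library), and over the 1815 others, with a rho of 0.15.

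**Figure D3:**
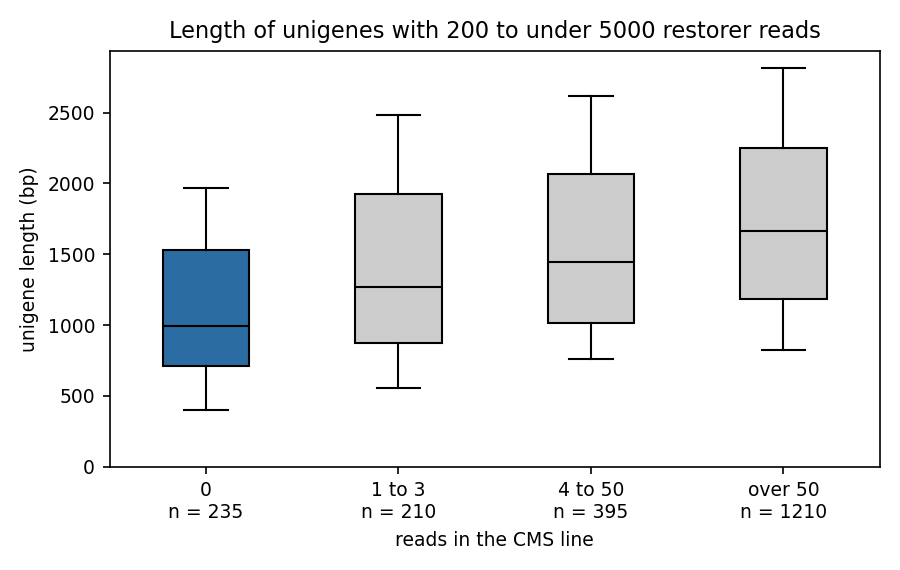
Length in bp (vertical axis) of the listed unigenes higher in 121C with 200 to below 5000 restorer reads, by their reads in 121A (horizontal axis). Boxes give the quartiles and the median, whiskers the 10th and 90th percentiles. The medians are 993, 1270, 1447 and 1663 bp from left to right, and the boxes overlap.

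Seen the other way, the share of unigenes with 0 CMS reads was 36.8% (35 of 95) among those under 500 bp, 20.9% (83 of 398) at 500 to below 1000 bp, 10.6% (56 of 526) at 1000 to below 1500 bp, 8.76% (38 of 434) at 1500 to below 2000 bp and 3.85% (23 of 597) at 2000 bp or more. The 35 short unigenes had a median of 125 RPKM in 121C, and the 23 long ones a median of 19.8 RPKM.

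Per length, the median level of the 235 unigenes in 121C was close to that of the others when all restorer reads of the range were pooled. Their median was 40.4 RPKM, and that of the 1815 unigenes with CMS reads was 40.2 RPKM. In each class of restorer reads within the range, the median was higher with 0 CMS reads. As RPKM divides reads by length, this goes with the shorter lengths in each class. Within the class below 500 restorer reads the median was 31.2 RPKM with 0 CMS reads and 21.8 RPKM with CMS reads. At 500 to below 1000 reads the medians were 57.3 and 44.7 RPKM, and at 1000 to below 2000 reads 98.2 and 89.1 RPKM, in the same order. In the class from 2000 reads it was 267 RPKM with 0 CMS reads and 174 RPKM with CMS reads.

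The name of a unigene gives its place in the Trinity assembly, as a component number and, after the letter c, a subcomponent number. Unigenes of 1 component were joined by shared sequence during assembly and may be parts of a gene, copies of it or relatives. The listed names hold 1 unigene per subcomponent. The 235 unigenes fell into 229 components, of which 223 held 1 of them and 6 held 2. Including listed unigenes outside the set, 48 of the 235 (20.4%) had another listed unigene in their component. The share was 20.3% among the 1815 unigenes of the same restorer range with CMS reads, and over the whole list it was 2273 of 11387. A subcomponent number above 0 was carried by 33 of the 235 (14.0%), beside 24.8% of all listed unigenes.

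In 5 of the 6 components with a pair of the described unigenes, no listed unigene had a CMS read. For the 4 given first, the pair are the only listed unigenes, so that the rule fixes this. The pair with most reads was comp26986_c0_seq1, with 797 reads in 121C, and comp26986_c1_seq1, with 943, and these are short, at 562 and 472 bp. Component comp59021 held comp59021_c0_seq1 with 772 restorer reads and comp59021_c1_seq1 with 281. In comp57006 the restorer reads were 283 for comp57006_c0_seq1 and 331 for comp57006_c1_seq1, and in comp59150 they were 320 for comp59150_c0_seq1 and 234 for comp59150_c1_seq1. The members of each of these 4 pairs differed in restorer reads by less than 3 times. Whether a pair is 1 transcript assembled in pieces was not tested.

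A further unigene was listed in the other components with a pair. In comp55598, comp55598_c1_seq1 had 300 and comp55598_c2_seq1 had 341 restorer reads, and the third, comp55598_c0_seq1, had 0 reads in 121A and 48 in 121C. In comp61455, named here because it is the sixth such component, comp61455_c1_seq1 had 1017 and comp61455_c2_seq1 had 330 restorer reads. The third, comp61455_c0_seq1, had 61 reads in 121A and 346 in 121C. It is 2844 bp long, while the pair with 0 CMS reads is 395 and 361 bp long.

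The components of the 235 unigenes held 58 other listed unigenes, in 38 components. Of these 58, 22 had 0 CMS reads, 10 had 1 to 3, and 16 had at least 50. Per library total, 9 (15.5%) were higher in 121A and 49 in 121C, beside 38.0% higher in 121A over the whole list. For 24 of the 235 unigenes (10.2%), a sequence of the same component had CMS reads, and for 6 of these a sequence of the component was higher in 121A. The same shares were not counted for the other listed unigenes, so the 24 and the 6 are not read as a trait of the set.

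The CMS reads of these related sequences were highest for comp60222. The unigene comp60222_c1_seq1 (939 bp) had 0 reads in 121A and 264 in 121C, while comp60222_c5_seq1 (2024 bp) had 12862 reads in 121A and 3618 in 121C. Its comp60222_c3_seq1 had 765 reads in 121A and 107 in 121C. Sequences of 1 component thus went in opposite directions.

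The same was found for comp60177 and comp59568. Of comp60177_c9_seq1 (1969 bp) there were 0 reads in 121A and 2370 in 121C, and of comp60177_c5_seq1 (4012 bp) 784 reads in 121A and 173 in 121C. Of comp59568_c0_seq1 (2583 bp) there were 0 reads in 121A and 657 in 121C, and of comp59568_c3_seq1 316 reads in 121A and 40 in 121C. In comp59882, which has 7 listed unigenes, comp59882_c11_seq1 had 0 reads in 121A and 1197 in 121C, and comp59882_c6_seq1 had 112 reads in 121A and 45 in 121C.

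In other components the related sequences were lower in 121A too, but had reads in both lines. In comp48362, comp48362_c0_seq1 (396 bp) had 0 reads in 121A and 543 in 121C. Its neighbour comp48362_c2_seq1 (3371 bp) had 1866 reads in 121A and 6913 in 121C. In comp59087, comp59087_c6_seq1 (2749 bp) had 0 reads in 121A and 519 in 121C, and comp59087_c0_seq1 had 207 reads in 121A and 646 in 121C. The counting rule for reads that match several unigenes is not given in the sources used here, and its part in these differences was not tested.

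Some of the unigenes shared a component with a longer sequence that had many more reads in 121C. In 5 components, named here after their values were seen, another sequence had more than 5000 restorer reads, and in each of them the unigene of the described set was shorter than it, at 275 to 396 bp. The unigene with the highest RPKM, comp38609_c0_seq1 (292 bp), shared its component with comp38609_c1_seq1 (1742 bp), which had 2 reads in 121A and 14144 in 121C. Per length the shorter of these was the higher one, at 1486 RPKM against 850 RPKM in 121C. In each of the other components, by contrast, the longer sequence was the higher one per length. In comp52301, comp52301_c0_seq1 (383 bp) had 0 reads in 121A and 341 in 121C, and comp52301_c1_seq1 (2127 bp) had 6 reads in 121A and 10442 in 121C.

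In these 2 components both sequences were far lower in 121A, and the same was found for comp60307. There, comp60307_c1_seq1 (275 bp) had 0 reads in 121A and 625 in 121C, and comp60307_c0_seq1 (1369 bp) had 0 reads in 121A and 7595 in 121C. In comp61220, comp61220_c1_seq1 (281 bp) had 0 reads in 121A and 360 in 121C, and comp61220_c3_seq1 (1392 bp) had 39 reads in 121A and 5708 in 121C. The fifth was comp48362, given above. Whether the short sequences belong to the same genes as the long ones was not tested.

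**Figure D4:**
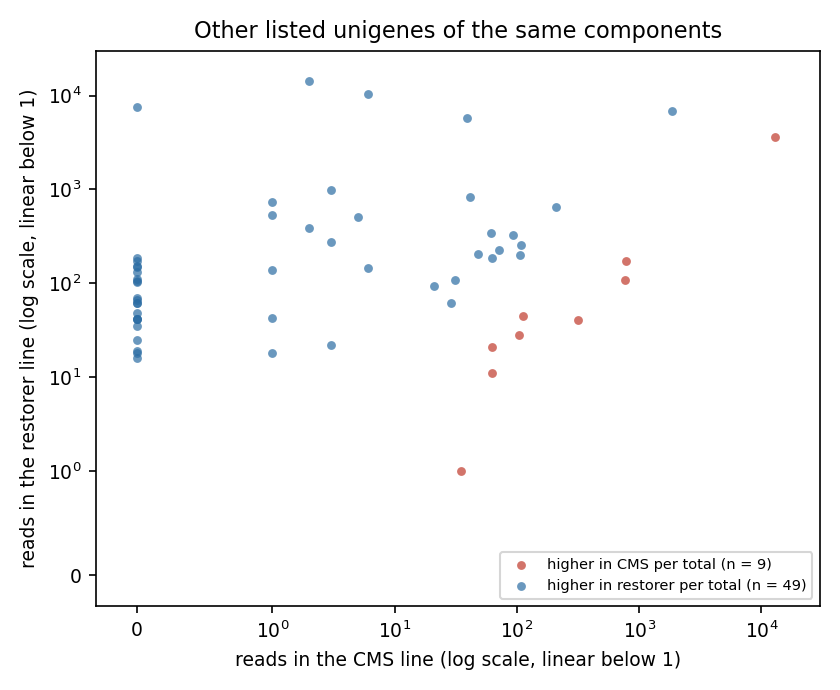
Reads in 121A (horizontal axis) and in 121C (vertical axis), on log scales that are linear below 1, of the 58 other listed unigenes in the components of the 235. Red points (9) are higher in 121A per library total and blue points (49) higher in 121C. The 22 points at 0 CMS reads form the left column, and the point farthest right is comp60222_c5_seq1 at 12862 CMS reads.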

How the data were processed

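Anther RNA of the CMS line and the restorer line was sequenced as 1 library per line. Per the labels and the methods, CASAVA was used, reads of low quality or short length were removed, and the reads of both lines were assembled with Trinity. The aligner and counting rule are not given in the sources used here. The authors deposited counts, that is whole reads per unigene without normalization, and RPKM, scaled to unigene length and counted library reads, for the unigenes they called different with DEGseq. Their log2 ratio, q-value and direction columns were not used.

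Library totals were recovered as the numbers for which every implied unigene length is whole. Limits of fold differences take fewer than 3 reads as 3. Alternatives were exact Clopper-Pearson limits at 95%, totals without the 1 or 10 most abundant listed unigenes of each library, other read limits, pseudocounts, a 500 bp filter, and subcomponents or summed components. With 1 library per line, no test was run. The recovery of totals and the fold limits were tested on simulated data. Python 3.11.15, pandas 2.3.3 and scipy 1.17.1 were used.

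The set and its lists were chosen with earlier results of these data known. Named are the PCR-tested unigenes, the 5 highest by reads and by RPKM, the 3 longest and shortest, the 3 on each side of each limit, and the components with a pair or with most CMS reads.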

Additional observations from a re-analysis of the deposited data

How the results depend on the processing

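With 1 library per line there is no replicate to leave out, and depth limits the CMS level of each unigene to what 3 reads allow. No paired analysis was possible because each line had 1 library. The number of unigenes was 445 with at most 3 CMS reads as absent, 471 with a lower limit of 100 restorer reads and 108 with a limit of 400, where the median length was 1200 bp. The median limit of the fold difference was 111-fold with Clopper-Pearson limits, 102-fold with totals that leave out the 10 most abundant listed unigenes of each library, and 99.9-fold without the most abundant one. A pseudocount of 0.1 RPKM moved the median log2 ratio to -8.66, and one of 0.01 RPKM to -11.98. The median level in the restorer line was 35.6 RPKM for unigenes of at least 500 bp and 47.4 RPKM without the 10 most abundant unigenes in the total. By subcomponent, 0 of the 235 unigenes shared a unit with another member and 0 with a unigene that had CMS reads, as only 1 unigene per subcomponent is listed. The other 6 alternatives stayed within 1.5 times of the number they replace. Among them were at most 1 CMS read (339) and reads summed per component (215). Within this factor, the number of unigenes at least 100-fold lower in the CMS line still fell from 175 of the 235. It was 136 with Clopper-Pearson limits, 122 with totals that leave out the 10 most abundant listed unigenes, and 117 without the most abundant one.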
